A study of Bos taurus with 8 samples.

Results

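The genes described here encode the machinery that moves new proteins into the endoplasmic reticulum (ER) and carries them between the ER and the Golgi apparatus. Their transcript levels were compared between bovine mammary epithelial cells with an shRNA against EEF1D and cells without one. The set holds 49 listed genes, taken as the array probes whose gene name in the scanner files is one of them. Of the 49, 48 had such a probe (TMED2 had none). The only probe of SRP54 had an outlier spot and was left out, so 47 genes were tested among 12608 in all. For each gene the brightest probe was used, and all 47 were well above background on the 8 arrays, so the filter on dim probes removed no member.

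The cells were primary bovine mammary epithelial cells (BMECs) isolated from the mammary tissue of a lactating Holstein cow and used at the fifth passage; the labels describe 1 donor animal. A short hairpin RNA (shRNA) lowers its target mRNA by RNA interference. The shRNA named EEF1D-1357 was on 3 arrays and the one named EEF1D-1893 on 3 others, and 2 control arrays are labelled as without shRNA. EEF1D encodes the delta subunit of elongation factor 1, which helps to recharge eEF1A during translation. No non-targeting hairpin is named in the labels, so a general response to carrying a hairpin and a response to lower EEF1D cannot be told apart. They also do not say whether replicates were separate cultures, and p-values here measure only the spread between these arrays.

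A protein bound for secretion is recognised by its signal sequence as it leaves the ribosome. The signal recognition particle (SRP) binds that sequence and docks at the SRP receptor, the SEC61 channel passes the chain across the ER membrane, the translocon-associated protein (TRAP) complex assists, and signal peptidase removes the signal sequence. Cargo then leaves the ER in vesicles coated by COPII, while COPI-coated vesicles return escaped ER proteins and receptors from the Golgi. Milk proteins take this route in the secretory cells of the mammary gland. The roles given for single genes below are known mainly from yeast and human cells.

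Levels are given as scaled log2 signal, which is the log2 processed intensity of the probe minus the 75th percentile of its array. This scale sets 1 probe against itself across arrays and says nothing about 1 gene against another. A fold change is a difference between group means on this scale, and "called" means that limma gave an adjusted p under 0.05 (Benjamini-Hochberg, over all genes tested). The values come from bulk RNA, in which fewer cells of a type and less RNA per cell cannot be told apart.

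The controls differed from each other more than arrays of 1 shRNA did. Across genes, their log2 difference had an SD of 0.83, where 2 arrays of the same shRNA gave 0.50 to 0.73. Control replicate 1 had the lowest 75th percentile, 1265 intensity units against 1597 to 2078 on the others, and the highest labelled spike-in signal over that percentile, 1.30 log2 units against 0.29 to 0.77. It lay on slide 2 with the EEF1D-1893 arrays, whereas control replicate 2 lay on slide 1 with the EEF1D-1357 arrays. Between 60.6% and 71.5% of probes were well above background per array, and 0 spots were saturated. The small number of arrays limits the precision, as does the difference between the controls. The target EEF1D stood at 5.98, 5.87 and 5.10 with EEF1D-1357 and at 6.0, 5.75 and 5.78 with EEF1D-1893, against 7.13 and 6.15 in the controls, or 53.9% of control without passing the test (limma adjusted p = 0.243). The log2 fold change of -0.89 for EEF1D was -0.40 without control replicate 1. All 6 markers each of luminal and of basal mammary epithelium were well above background on all arrays. Their summed linear signal, over each array's 75th percentile, lay between 481 and 509 with EEF1D-1357, between 481 and 549 with EEF1D-1893 and between 513 and 925 in the controls for the luminal list. For the basal list it was 192 to 220, 151 to 324 and 295 to 310 in the same groups. Single basal markers moved by more than this sum. MYLK had a log2 fold change of -3.50, at -4.82 to -1.54 with the shRNAs against -0.99 and 0.57 in the controls. KRT14 had one of -2.19 and ranged over 0.21 to 6.42 among the EEF1D-1893 arrays, against 4.85 and 6.93 in the controls. The other basal markers had fold changes of -0.41 to -0.09. Of the luminal markers KRT19 had a log2 fold change of -1.18, at 4.45 to 6.25 with the shRNAs against 7.90 and 5.35 in the controls. The other luminal markers had fold changes of -0.44 to 0.17. The part of these shifts in the results was not tested. Of 7 fibroblast markers 6 were measured, at summed levels of 1.31 to 1.5 with EEF1D-1357, 1.61 to 3.84 with EEF1D-1893 and 2.21 to 2.78 in the controls. COL1A2 and LUM were above background on 4 of the 8 arrays each, at log2 fold changes of -3.04 and -0.96. The other measured fibroblast markers had fold changes of -0.35 to -0.06. Of 6 leukocyte markers 5 were well above background on all arrays, PTPRC among them, at summed levels of 5.67 to 7.72 with EEF1D-1357, 4.18 to 6.36 with EEF1D-1893 and 5.69 to 8.14 in the controls. Endothelial VWF was above background on all 8 arrays, at a log2 fold change of -0.70, and endothelial CDH5 on 2 arrays, at 1.59. The adipocyte genes PLIN1 and CIDEC were above background on 3 and 4 arrays, at 0.02 and 0.34. PECAM1 and KDR, also endothelial, and the adipocyte gene ADIPOQ did not pass the filter on dim probes. The part of these cell types in the results was not tested.

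With both shRNAs against the controls, the transport genes were measured higher more often than lower, by small amounts, and 0 of the 47 passed the test in either direction (limma). Among all 12608 genes 0% were called either. At an unadjusted p under 0.05, 15 members were higher and 1 was lower, where 7.39% of all genes were higher and 9.51% lower. The fold change was above 0 for 32 members and below 0 for 15, with a median log2 fold change of 0.19, against -0.07 over all genes. For 13 members (27.7%) all 6 shRNA arrays lay above both controls, against 7.76% of all genes, and for 4 (8.51%) all 6 lay below, against 9.07%. With each array scaled by its median instead, 19 members were higher and 1 lower at an unadjusted p under 0.05, while over all genes the split was 1281 higher and 850 lower in place of 932 and 1199. The smallest adjusted p among the members was 0.144.

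**Figure D1:**
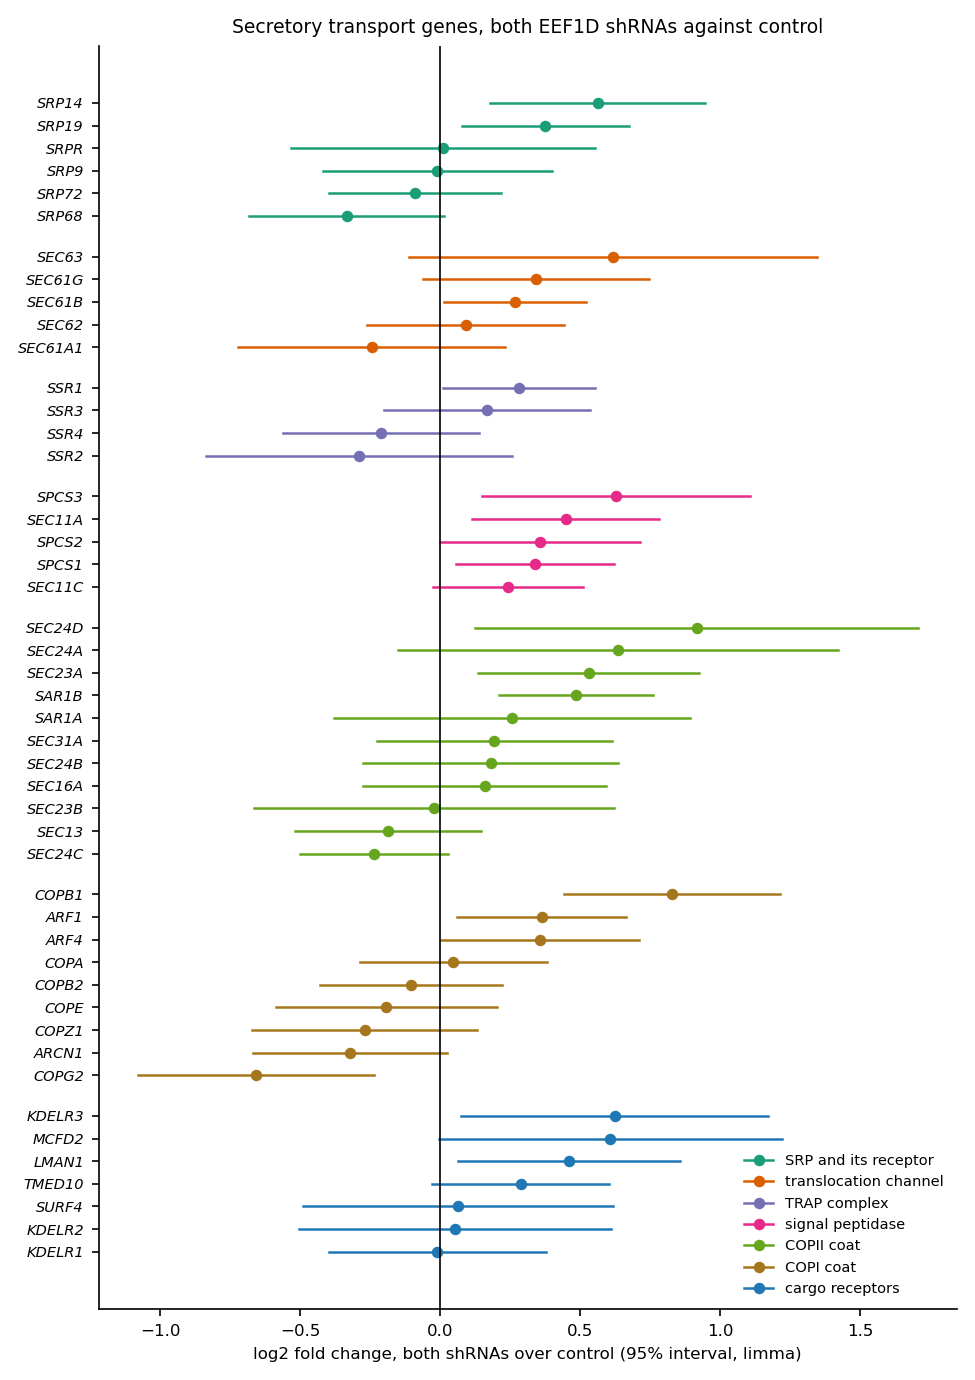
Log2 fold change of both EEF1D shRNAs over control for each of the 47 measured genes (points) with its 95% interval from limma (lines), grouped by role and ordered within each group. All 5 signal peptidase genes lie above 0, whereas the COPI coat ranges between COPB1 at 0.83 and COPG2 at -0.66.

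Read by array, the levels of the members were lowest in the controls. Over the 47 genes, the median deviation of the log2 signal from the mean of the 8 arrays was 0.03, -0.04 and -0.03 with EEF1D-1357, 0.10, 0.09 and 0.07 with EEF1D-1893 and -0.15 in each control. Both controls lay below the 6 shRNA arrays. Over all genes tested the same medians were -0.02, -0.06 and -0.03 with EEF1D-1357, 0.02, 0.01 and 0.02 with EEF1D-1893, and 0.19 and -0.06 in the controls.

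**Figure D2:**
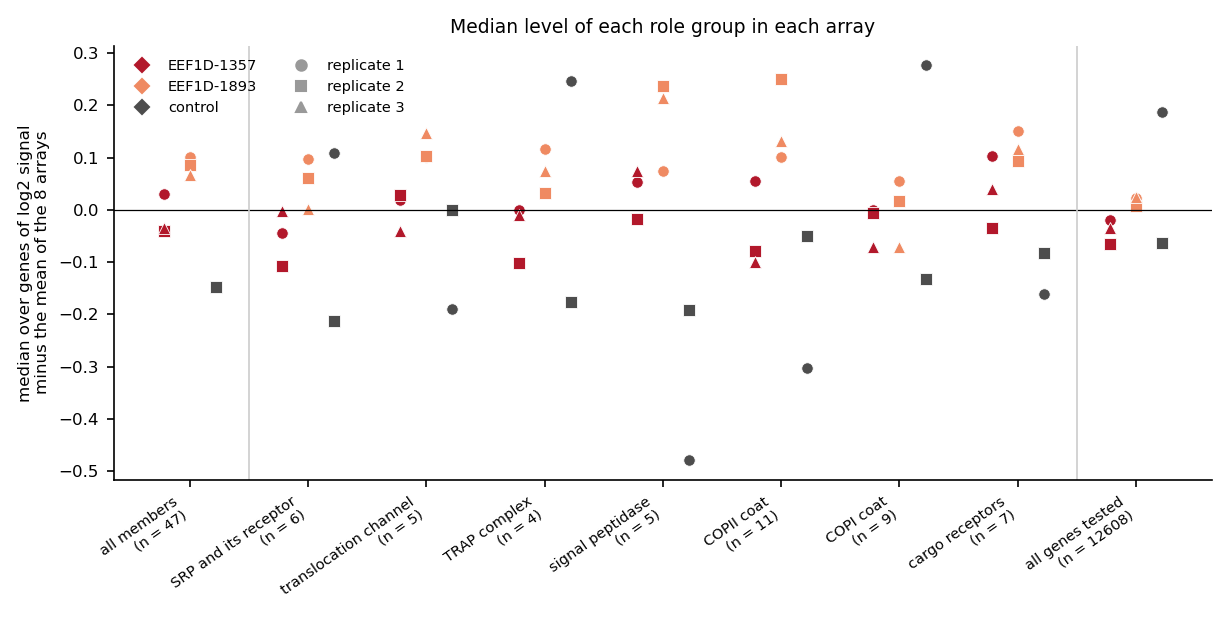
Median over the genes of each role group of the log2 signal minus the mean of the 8 arrays, one point per array, with EEF1D-1357, EEF1D-1893 and control side by side and the replicate number as the symbol. Signal peptidase has both controls lowest, at -0.48 and -0.19, and so do the cargo receptors, at -0.16 and -0.08. In the SRP, TRAP and COPI groups control replicate 1 lies highest. For all members the 2 control points coincide at -0.15.

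The SRP genes did not move as one. SRP14, which with SRP9 forms the part of the particle that slows elongation, stood at 4.38, 4.23 and 3.91 with EEF1D-1357 and at 4.34, 4.21 and 4.07 with EEF1D-1893, against 3.72 and 3.54 in the controls. All 6 shRNA arrays lay above both controls, and the log2 fold change was 0.56 (SE 0.16), or 1.48-fold (limma adjusted p = 0.195). Its partner SRP9 stood at -0.01 (SE 0.17). SRP19, which binds the SRP RNA and helps to assemble the particle, stood at 3.51, 3.43 and 3.31 with EEF1D-1357 and at 3.40, 3.31 and 3.25 with EEF1D-1893, against 2.89 and 3.09 in the controls. At a log2 fold change of 0.37 (SE 0.13), the groups did not overlap, and its other 2 probes gave 0.42 and 0.31 (limma adjusted p = 0.229 for the brightest). SRP68, which forms a dimer with SRP72, was the reverse case, with 3.15, 3.01 and 3.19 under EEF1D-1357 and 3.15, 3.16 and 3.19 under EEF1D-1893, against 3.70 and 3.25 in the controls. This gave a log2 fold change of -0.33 (SE 0.15), or -0.11 without control replicate 1. SRP72 and the receptor subunit SRPR stood at -0.09 and 0.01, and a second probe of SRP72 gave -0.47 (SE 0.19). The signs of SRP9 and SRPR depended on the control kept. They stood at 0.24 and 0.47 without control replicate 1 and at -0.26 and -0.45 without control replicate 2. The median over the 6 genes was 0.00 with 3 above 0, and it was 0.26 without control replicate 1 and -0.12 without control replicate 2.

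In the translocation channel, 4 of 5 genes had a fold change above 0, with a median of 0.27, or 0.09 without control replicate 1. SEC61B, a small subunit of the channel, stood at 3.85, 3.91 and 3.89 with EEF1D-1357 and at 4.02, 3.98 and 4.03 with EEF1D-1893, against 3.73 and 3.63 in the controls. The groups did not overlap, the log2 fold change was 0.27 (SE 0.11; limma adjusted p = 0.281), and it was 0.25 on slide 1 and 0.28 on slide 2. SEC61G, the other small subunit, stood at 5.03, 4.83 and 4.77 with EEF1D-1357 and at 5.33, 5.43 and 5.18 with EEF1D-1893, against 4.5 and 5.01 in the controls. The EEF1D-1893 arrays were the 3 highest, at a log2 fold change of 0.34 for both shRNAs (SE 0.17) and 0.09 without control replicate 1. The pore subunit SEC61A1 stood at -0.25 (SE 0.20), and at 0.09 without control replicate 1. SEC63, which brings the chaperone BiP to the channel, stood at 0.62 (SE 0.31), but at 0.05 without control replicate 1, which alone was low (-0.63, against 0.18 to 0.81 elsewhere). 

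SEC62, the partner of SEC63 in post-translational import, had 6 tested probes that disagreed in size. The brightest of them, which lies farthest upstream, stood at 4.12, 4.09 and 3.75 with EEF1D-1357 and at 3.58, 3.66 and 3.71 with EEF1D-1893, against 3.61 and 3.85 in the controls. Its log2 fold change was 0.09 (SE 0.15), whereas the other 5 probes gave 0.40 to 0.76 and their mean with it 0.53. In each of those 5 probes control replicate 1 was the lowest array, and control replicate 2 lay within the range of the shRNA arrays. For 1 of them the level was 1.12 in control replicate 1, against 2.60 in control replicate 2 and 2.30 to 2.78 with the shRNAs. The sequence of the brightest probe is shown because the reading of the gene depends on the probe, and also on the control. The probe lies at chr1:99751030-99756639 on the minus strand of Btau_3.1, a span of 5610 bases for a probe of 60, which crosses at least 1 gap in the alignment. It is printed 5′ to 3′ from the scanner files, as are the other probes below; no part is marked, and each holds at least 1 forward reading frame without a stop codon.
SEC62 probe A_73_P096611: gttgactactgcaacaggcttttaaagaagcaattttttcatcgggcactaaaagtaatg

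Of the 4 TRAP genes 2 were above 0 and 2 below, and the median of -0.02 was 0.18 without control replicate 1 and -0.25 without control replicate 2. SSR1, the alpha subunit, stood at 4.15, 4.06 and 4.13 with EEF1D-1357 and at 4.32, 4.24 and 4.28 with EEF1D-1893, against 3.82 and 4.01 in the controls. The groups did not overlap, and the log2 fold change was 0.28 (SE 0.12), or 1.21-fold (limma adjusted p = 0.285), and 0.18 without control replicate 1. All 6 probes of SSR1 were above 0, at 0.09 to 0.32. SSR3 stood at 0.17, or -0.08 without control replicate 2. SSR4 stood at -0.21 and SSR2 at -0.29, and without control replicate 1 these values were near 0 for SSR4 and 0.17 for SSR2, in which that array was the highest at 6.85.

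Signal peptidase was the role group in which every gene pointed the same way: all 5 subunits had fold changes above 0, at 0.24 to 0.63 with a median of 0.36, also when either control was left out, and 4 of the 5 separated the 6 shRNA arrays from both controls. SPCS3, an accessory subunit needed for activity, had the largest fold change of the 5 and stood at 2.56, 2.74 and 3.13 with EEF1D-1357 and at 2.90, 3.25 and 3.33 with EEF1D-1893, against 2.20 and 2.52 in the controls. EEF1D-1357 replicate 1 lay just above control replicate 2, and the log2 fold change was 0.63 (SE 0.20), or 1.54-fold (limma adjusted p = 0.221). SEC11A, one of the alternative catalytic subunits, stood at 4.44, 4.26 and 4.35 with EEF1D-1357 and at 4.63, 4.71 and 4.43 with EEF1D-1893, against 3.88 and 4.17 in the controls. Its log2 fold change was 0.45 (SE 0.14; limma adjusted p = 0.216), and its second probe gave 0.61. The other catalytic subunit, SEC11C, was measured at 4.24, 4.37 and 4.39 with EEF1D-1357 and at 4.35, 4.40 and 4.48 with EEF1D-1893, against 4.15 and 4.11 in the controls. Here too the groups did not overlap, by a narrower margin, at a log2 fold change of 0.24 (SE 0.11; limma adjusted p = 0.330).

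SPCS1, a small regulatory subunit, stood at 4.49, 4.47 and 4.51 with EEF1D-1357 and at 4.44, 4.55 and 4.65 with EEF1D-1893, against 4.10 and 4.26 in the controls, a log2 fold change of 0.34 (SE 0.12; limma adjusted p = 0.238). SPCS2 stood at 0.36 (SE 0.15), or 0.12 without control replicate 1, with a second probe at 0.82, but EEF1D-1357 replicate 3 (1.51) lay below control replicate 2 (1.57). The median over the 5 genes was 0.22 within slide 1 and 0.69 within slide 2, and it was 0.26 without control replicate 1 and 0.59 without control replicate 2. The probe of SPCS3 is printed as the one behind the largest value in the complex; it lies at chr27:8499040-8499099 on the plus strand of Btau_3.1.
SPCS3 probe A_73_P038446: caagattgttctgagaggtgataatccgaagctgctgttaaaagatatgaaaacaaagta

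Of the 11 COPII genes 8 had fold changes above 0, with a median of 0.19. SAR1B, the small GTPase that starts coat assembly, had the smallest p of the group. It stood at -1.04, -0.94 and -1.06 with EEF1D-1357 and at -0.97, -0.81 and -0.89 with EEF1D-1893, against -1.38 and -1.5 in the controls. The groups did not overlap, and the log2 fold change was 0.48 (SE 0.12), or 1.40-fold (limma adjusted p = 0.155). It was 0.48 on slide 1 and 0.49 on slide 2, 0.54 without control replicate 1 and 0.42 without control replicate 2, and a second probe farther downstream gave 0.86. Its paralogue SAR1A had a wide spread, at 2.28, 1.93 and 1.89 with EEF1D-1357 and 2.80, 1.99 and 2.42 with EEF1D-1893, against 2.30 and 1.62 in the controls. The groups overlapped, and the log2 fold change was 0.26 (SE 0.27), or -0.08 without control replicate 2. The SAR1B probe is shown because its values were steady across slides and controls; it lies at chr7:45327024-45327083 on the minus strand of Btau_3.1.
SAR1B probe A_73_112445: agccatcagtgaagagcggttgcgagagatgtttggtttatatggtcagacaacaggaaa

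SEC23 activates the SAR1 GTPase and SEC24 selects cargo, and the paralogues of both differed in their values. SEC23A stood at -0.37, -0.74 and -0.53 with EEF1D-1357 and at -0.19, 0.07 and -0.03 with EEF1D-1893, against -1.03 and -0.63 in the controls. The difference was 0.53 on the log2 scale (SE 0.17; limma adjusted p = 0.214), with 0.08 on slide 1 and 0.98 on slide 2, and it was 0.33 without control replicate 1. SEC23B stood at 2.45, 2.20 and 2.35 with EEF1D-1357 and at 2.56, 2.84 and 2.50 with EEF1D-1893, against 3.05 and 1.97 in the controls. All 6 shRNA arrays lay between the controls, and the log2 fold change of -0.02 became 0.51 without control replicate 1.

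SEC24D had the largest fold change of all 47 genes, and 1 array set its size. It stood at 2.18, 2.15 and 1.86 with EEF1D-1357 and at 2.05, 2.28 and 2.11 with EEF1D-1893, against 0.48 and 1.89 in the controls. The log2 fold change was 0.92 (SE 0.34), or 1.89-fold (limma adjusted p = 0.251), and it was 0.21 without control replicate 1. SEC24A had a like pattern, at 1.76, 1.63 and 1.39 with EEF1D-1357 and 1.58, 1.68 and 1.46 with EEF1D-1893, against 0.25 and 1.65 in the controls. A log2 fold change of 0.63 (SE 0.33) turned to -0.07 without control replicate 1. SEC24B stood at 0.70, 0.67 and 0.59 with EEF1D-1357 and at 0.59, 0.70 and 0.91 with EEF1D-1893, against 0.18 and 0.85 in the controls, so the groups overlapped. A log2 fold change of 0.18 (SE 0.19) resulted, and it was -0.15 without control replicate 1. SEC24C lay the other way, at 3.75, 3.69 and 3.59 with EEF1D-1357 and 3.70, 3.73 and 3.79 with EEF1D-1893, against 3.94 and 3.96 in the controls. The groups did not overlap, at a log2 fold change of -0.24 (SE 0.11; limma adjusted p = 0.334), although the mean over its 4 probes was 0.14. Of the outer coat and scaffold genes, SEC31A stood at 0.19, SEC16A at 0.16 and SEC13 at -0.19. Without control replicate 1 SEC31A was at 0.03 and SEC13 near 0, and without control replicate 2 SEC16A was at 0.09.

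The COPI coat held the member with the smallest p overall as well as the lowest fold change. COPB1, the beta subunit of the coatomer, stood at 3.16, 2.86 and 2.80 with EEF1D-1357 and at 2.66, 2.89 and 2.75 with EEF1D-1893, against 1.85 and 2.21 in the controls. All 6 shRNA arrays were higher by at least the gap between the controls, and the log2 fold change was 0.83 (SE 0.16; 95% interval 0.44 to 1.21), or 1.77-fold (limma adjusted p = 0.144). It was 0.73 on slide 1 and 0.92 on slide 2, and 0.65 without control replicate 1. Its other 2 probes gave less the farther upstream they lay: 0.41 (SE 0.17) at 7918 genomic bases upstream of the brightest probe, and -0.01 (SE 0.14) at 15605. COPG2, an alternative gamma subunit, stood at 0.20, 0.22 and 0.00 with EEF1D-1357 and at 0.20, 0.18 and 0.06 with EEF1D-1893, against 1.10 and 0.50 in the controls. All shRNA arrays lay below both controls. The log2 fold change was -0.66 (SE 0.18), which is 63.3% of control (limma adjusted p = 0.179), or -0.36 without control replicate 1. Its second probe gave -0.44.

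The probes of these subunits are shown because COPB1 depended on the probe. The COPB1 probe that gave 0.41 lies at chr15:37040877-37043237 and the one that gave -0.01 at chr15:37034669-37035550, both on the plus strand of Btau_3.1, and each spans more than the 60 bases of the probe. The brightest COPB1 probe lies downstream of both, at chr15:37051096-37051155. For the COPG2 probe the files place 30 of its 60 bases, at chr4:97502552-97502581 on the minus strand.
COPB1 probe A_73_P277061: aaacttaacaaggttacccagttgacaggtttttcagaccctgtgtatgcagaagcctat
COPB1 probe A_73_P269621: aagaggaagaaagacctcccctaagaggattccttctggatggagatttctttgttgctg
COPG2 probe A_73_111519: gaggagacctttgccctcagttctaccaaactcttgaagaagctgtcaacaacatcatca

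Both GTPases of the group were above the controls on all shRNA arrays. ARF1, which brings the coatomer to Golgi membranes, stood at 6.52, 6.48 and 6.52 with EEF1D-1357 and at 6.57, 6.49 and 6.59 with EEF1D-1893, against 6.33 and 6.01 in the controls. The shRNA arrays lay close together and above both controls, at a log2 fold change of 0.36 (SE 0.13; limma adjusted p = 0.241), or 0.20 without control replicate 2. The other 2 tested probes of ARF1 gave 0.36 and 0.44. ARF4, a related GTPase of the early secretory pathway, stood at 2.61, 2.43 and 2.25 with EEF1D-1357 and at 2.54, 2.37 and 2.20 with EEF1D-1893, against 2.00 and 2.09 in the controls. The groups did not overlap, at a log2 fold change of 0.36 (SE 0.15; limma adjusted p = 0.296). A second probe that the files name ARF4 belongs to ARF2 by its RefSeq accession and was not the one used here. The upstream ARF1 probe, which gave 0.44, is printed as the tested probe farthest from the brightest. It lies at chr7:2920375-2920522 on the minus strand of Btau_3.1.
ARF1 probe A_73_P261086: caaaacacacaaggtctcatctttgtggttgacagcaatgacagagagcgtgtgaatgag

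The remaining coatomer subunits depended on the control kept. ARCN1, the delta subunit, stood at 1.26, 1.31 and 1.12 with EEF1D-1357 and at 1.42, 1.12 and 1.09 with EEF1D-1893, against 1.67 and 1.43 in the controls. Its groups did not overlap, by a margin of under 0.01 for EEF1D-1893 replicate 1, at a log2 fold change of -0.32 (SE 0.15), or -0.20 without control replicate 1. COPZ1, COPE, COPB2 and COPA stood at -0.27, -0.19, -0.11 and 0.05. All 4 were above 0 without control replicate 1, at 0.02, 0.08, 0.09 and 0.20, and below 0 without control replicate 2, at -0.56, -0.47, -0.30 and -0.10. Over the 9 genes of the group the median was -0.11 with 4 above 0, and it was 0.09 without control replicate 1 and -0.30 without control replicate 2.

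**Figure D3:**
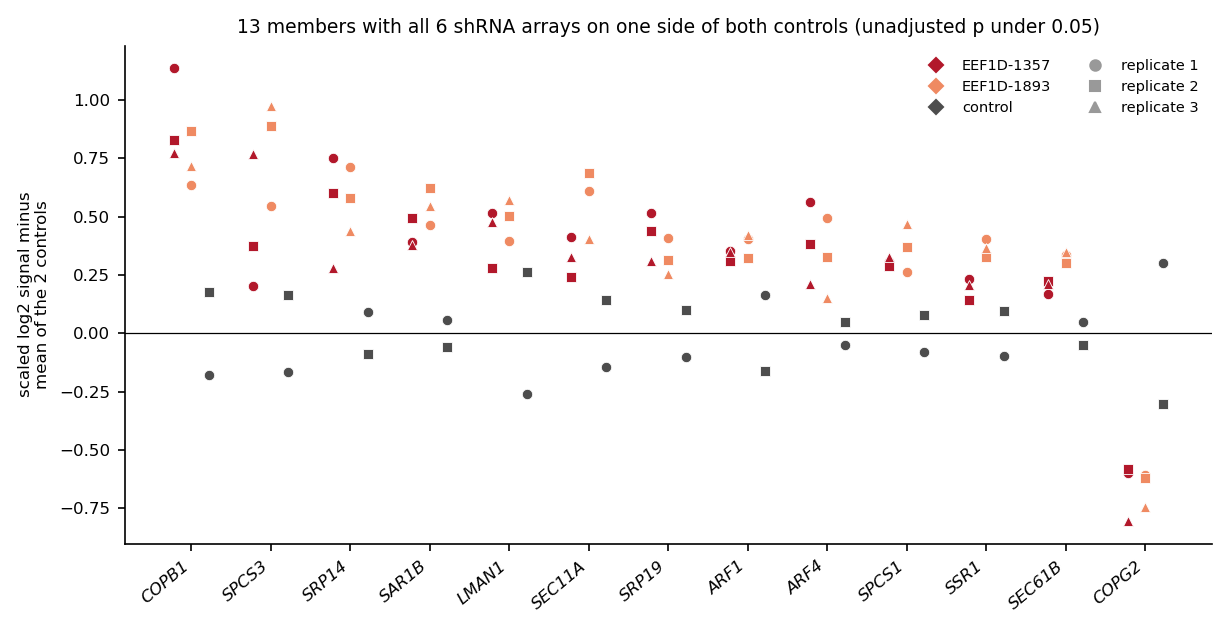
Scaled log2 signal of 13 members minus the mean of the 2 controls, one point per array, with EEF1D-1357, EEF1D-1893 and control side by side for each gene and the replicate number as the symbol. These genes have an unadjusted p under 0.05 and no overlap between the 6 shRNA arrays and the controls; in COPB1 all shRNA arrays are at least 0.6 above the control mean, and COPG2 is the one gene with the shRNA arrays below.

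Among the cargo receptors 6 of 7 had fold changes above 0, with a median of 0.29. LMAN1, a lectin that carries glycoproteins out of the ER, stood at 0.80, 0.56 and 0.76 with EEF1D-1357 and at 0.68, 0.78 and 0.85 with EEF1D-1893, against 0.02 and 0.54 in the controls. EEF1D-1357 replicate 2 lay only just above control replicate 2. The log2 fold change was 0.46 (SE 0.17; limma adjusted p = 0.250), or 0.20 without control replicate 1. MCFD2, the partner of LMAN1 in carrying coagulation factors, stood at 0.61 (SE 0.26), with control replicate 1 low at 1.41 and a value of 0.19 without it. TMED10, a p24 family receptor, stood at 0.29 (SE 0.13), or 0.10 without control replicate 1. SURF4, which carries soluble cargo out of the ER, stood at 0.06, at 0.46 without control replicate 1 and at -0.34 without control replicate 2.

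The 3 KDEL receptors, which retrieve ER residents from the Golgi, did not share a pattern. KDELR3 stood at 0.55, 0.34 and 0.19 with EEF1D-1357 and at 0.79, 0.55 and 0.57 with EEF1D-1893, against 0.30 and -0.55 in the controls. EEF1D-1357 replicate 3 lay below control replicate 1, and the log2 fold change of 0.62 (SE 0.23; limma adjusted p = 0.257) was 0.20 without control replicate 2. KDELR1 stood at 3.19, 3.08 and 3.03 with EEF1D-1357 and at 3.24, 2.97 and 3.00 with EEF1D-1893, against 3.34 and 2.85 in the controls, at a log2 fold change of -0.01 (SE 0.16). KDELR2 stood at 3.42, 3.31 and 2.73 with EEF1D-1357 and at 3.33, 2.76 and 3.18 with EEF1D-1893, against 2.95 and 3.19 in the controls, at 0.05 (SE 0.24). In both genes the controls lay within the range of the shRNA arrays or spanned it.

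Because each slide held 1 shRNA and 1 control, the fold changes were also read within slides, which share no array. On slide 1, EEF1D-1357 against control replicate 2, the median over members was 0.16, against 0.03 over all genes. On slide 2, EEF1D-1893 against control replicate 1, it was 0.22, against -0.19. Of the 47 members 25 (53.2%) were above their control on both slides, where 22.3% of all genes were, and 7 (14.9%) were below on both, where 31.0% were. The 7 were SRP68, SSR4, SEC13, SEC24C, COPG2, COPZ1 and ARCN1, named after their values were seen. A further 10 were higher on slide 1 alone and 5 on slide 2 alone. By role, 5 of 5 signal peptidase genes and 6 of 11 COPII genes were higher on both slides, against 3 of 9 COPI genes.

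**Figure D4:**
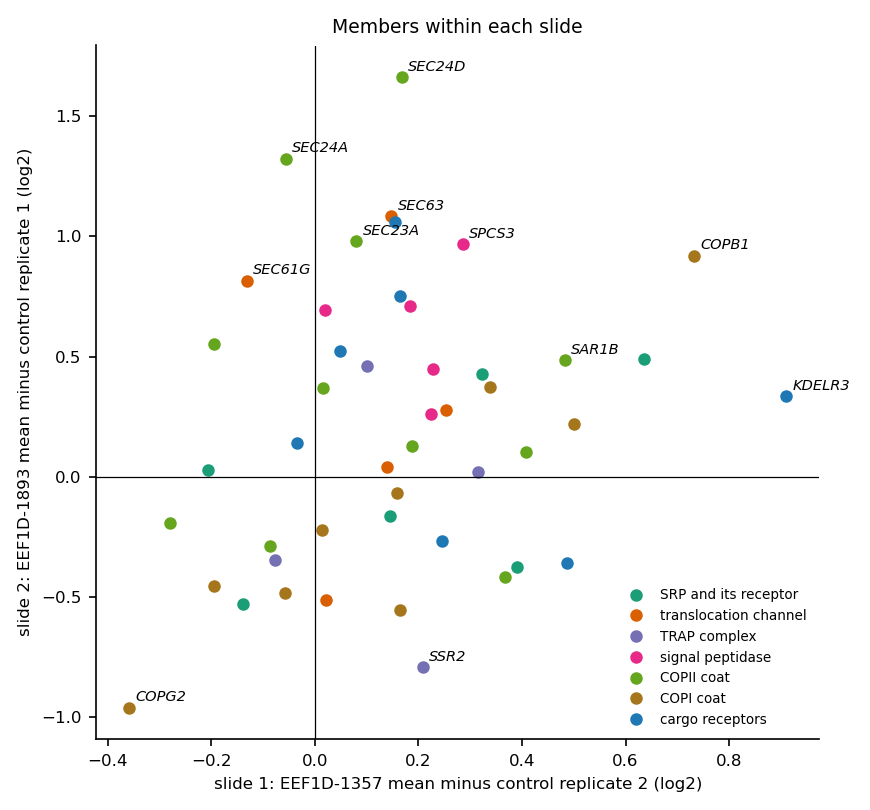
Mean log2 signal of the EEF1D-1357 arrays minus control replicate 2 on slide 1 (horizontal axis) against that of the EEF1D-1893 arrays minus control replicate 1 on slide 2 (vertical axis), one point per member, coloured by role. COPB1 and SAR1B lie far from 0 on both axes, whereas SEC24D and SEC24A are high on slide 2 only, at 1.66 and 1.32 against 0.17 and -0.06.

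With slide as a block in the limma fit, each shRNA was set against the control on its own slide, and the spread came from the shRNA arrays alone. For both shRNAs together 4 members were called: COPB1, SAR1B and SEC24D rose and COPG2 fell (slide block adjusted p = 0.0377, 0.0441, 0.0357 and 0.0358). That is 3 higher and 1 lower among 47, where 2.61% of all genes were called higher and 2.89% lower. Without the block, or with slide 1 or slide 2 fitted alone, 0 members were called (limma). With control replicate 2 left out, 18 members were called. Of these 12 were higher and 6 lower, where 8.66% of all genes were called higher and 14.6% lower (23.3% in all). With control replicate 1 left out 0 were, and 0.0317% of all genes were higher and 0.174% lower (limma). The groups likewise separated in 23 members upwards and 5 downwards without control replicate 1, against 25.0% and 16.7% of all genes. Without control replicate 2 they did so in 23 upwards and 16 downwards, against 22.4% and 41.8%.

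Set singly against the same 2 controls, EEF1D-1357 had 32 members above 0 and a median of 0.14, and EEF1D-1893 had 33 and a median of 0.26. The all-gene medians were -0.09 and -0.03. In each contrast 0 members were called, as were 0% of all genes (limma). At an unadjusted p under 0.05, 4 were higher and 1 lower with EEF1D-1357, where 6.27% and 9.88% of all genes were, and 15 were higher and 1 lower with EEF1D-1893, where 6.82% and 7.26% were. The 5 with EEF1D-1357 were COPB1 (0.91), SRP14 (0.55), SRP19 (0.42), SAR1B (0.42) and COPG2 (-0.66). Under median scaling these became 14 higher and 1 lower with EEF1D-1357, with 1273 higher and 792 lower among all genes in place of 790 and 1246. With array weights 3 were higher and 1 lower with EEF1D-1357, with 362 and 585 among all genes. For EEF1D-1893 array weights gave 5 and 1, with 264 and 275 among all genes. All EEF1D-1357 arrays lay above both controls in 13 members and below in 5, against 12.3% and 18.3% of all genes, and all EEF1D-1893 arrays did so in 21 and 4, against 13.7% and 14.5%. The slide block called 0 members for EEF1D-1357, where 0.0317% of all genes were called higher and 0.190% lower. For EEF1D-1893 it left control replicate 1 alone for comparison and called 15, of which 11 were higher and 4 lower, where 6.56% of all genes were higher and 8.13% lower (14.7% in all). The 15 included COPB1, SEC11A, SEC23A, SSR1 and LMAN1 among the higher and COPG2, SRP68 and COPE among the lower. Without control replicate 2, EEF1D-1357 had 9 members higher and 8 lower, where 7.95% and 15.2% of all genes were.

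The shRNAs were also set against each other, in the same fit over all 8 arrays, so that the controls entered the spread but not the difference, and 0 members were called (limma; 0% of all genes). EEF1D-1357 arrays gave 35 of 47 members a fold change below 0, with a median of -0.08, against -0.05 over all genes, but 24 below 0 and 23 above under median scaling. At an unadjusted p under 0.05, 2 members were lower, SEC23A at -0.50 (SE 0.17) and SEC61G at -0.44 (SE 0.17), and 0 were higher, where 3.82% and 2.59% of all genes were. A fit of the 6 shRNA arrays alone again called 0 members and gave 1 member higher and 2 lower at that p, with 562 higher and 1194 lower among all genes. Median scaling gave 1 member higher and 0 lower at that p, and 522 higher and 300 lower among all genes in place of 326 and 482. In 13 members every EEF1D-1357 array lay below every EEF1D-1893 array (14.8% of all genes), and in 2, SEC62 and COPE, every one lay above (6.77%). Slide and shRNA cannot be told apart in this direct comparison, since each shRNA was on 1 slide. With slide as a block the comparison runs through 1 control per slide. The median was then -0.0041 over members and 0.16 over all genes.

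Most members had further probes. Of 115 member probes 110 were tested, and 0 were called for both shRNAs against control when each probe was its own feature, as were 0% of all 25538 probes (limma; 2081 higher and 2671 lower at an unadjusted p under 0.05). For 32 members with more than 1 tested probe, all probes were above 0 in 13 and below 0 in 9, and the signs differed in 10. The counts follow the names in the scanner files. ARF4 is therefore among the 32 and the 13 through the probe that belongs to ARF2. In COPB1, LMAN1, SEC16A, SEC23A, SEC24A and SEC24D the probe farthest upstream was at or below 0 while the brightest was above it. Some of these upstream probes were dim. That of SEC23A stood at -4.89 to -4.24 and was above background on 7 arrays. Those of SEC16A and SEC24A stood at -4.82 to -3.78 and -3.98 to -2.85. The part of dim signal in their values was not tested. SEC16A gave 0.16 (SE 0.18) and, at 4215 bases upstream, -0.14 (SE 0.29). LMAN1 gave 0.46 and 0.42 downstream and -0.27 at 15319 bases upstream, SEC23A 0.51 to 0.54 and -0.28 at 57568 bases, and SEC24D 0.92 and -0.20 at 26904 bases. COPA and COPZ1 ran the other way, with upstream probes at 0.79 and 0.44 over brightest probes at 0.05 and -0.27. SEC24C followed neither order, at -0.24 for the brightest and most downstream probe, 0.15 and 0.69 for the next 2 and -0.03 for the farthest, 11438 bases upstream. Fold changes of the most downstream minus the most upstream probe were also read within slides 1 and 2. They were alike in COPB1 (0.84 and 0.83). On slide 2, which held control replicate 1, they were larger in SEC24A (0.80 and 1.45) and COPZ1 (-0.56 and -0.87). LMAN1 (0.22 and 1.16), SEC23A (0.27 and 1.35), SEC24D (0.31 and 1.92) and COPA (-0.10 and -1.39) differed mostly there. In SEC16A the sign changed (-0.14 and 0.73). Over the 21 members with probes at least 1000 bases apart, the most downstream over the most upstream probe had a median difference of -0.06 between both shRNAs and control, and 8 were above 0. Over 4926 such genes the median was 0.04 (54.0% above 0), and by array the median ratio was lowest in control replicate 1, at -0.08 against -0.01 to 0.03 elsewhere. The part of probe position in the fold changes was not tested further.

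**Figure D5:**
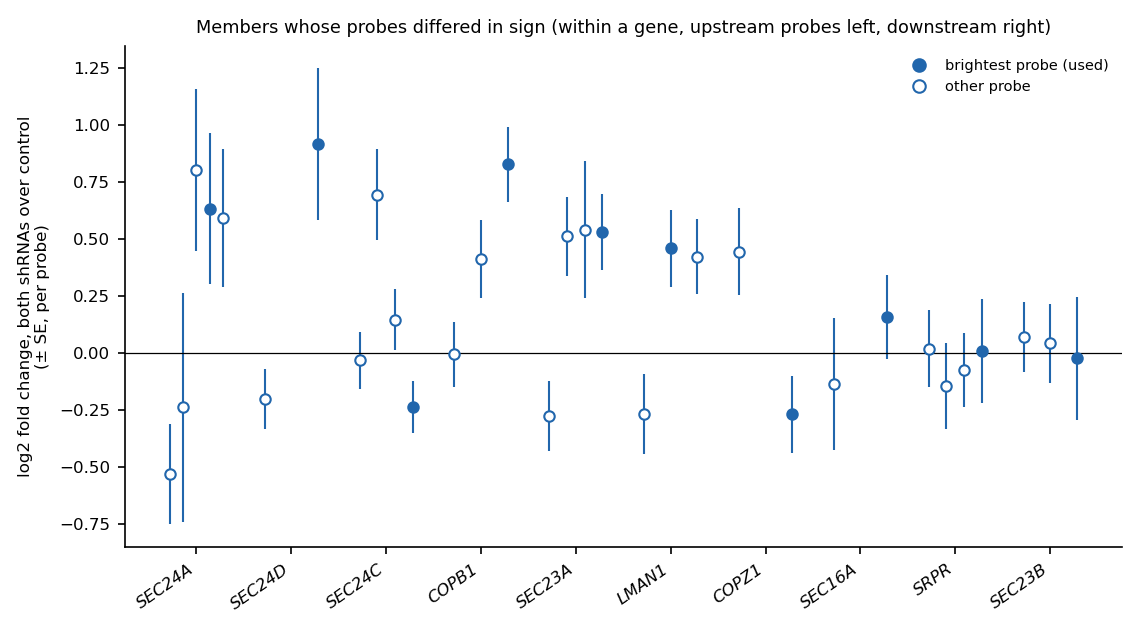
Log2 fold change of both shRNAs over control for every tested probe of the 10 members whose probes differed in sign, with SE bars; within a gene the probes run with the most upstream at the left, and filled points mark the brightest probe. SEC24A, SEC24D, COPB1, SEC23A, LMAN1 and SEC16A have their lowest probe at the upstream end, while COPZ1 has the higher one there.

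Further genes of the route were taken from lists on neighbouring steps, and 0 of them passed the test for both shRNAs together (limma). In the oligosaccharyltransferase list, which adds N-glycans to chains entering the ER, 8 of 11 measured genes were above 0, with a median of 0.13 and 1 higher at an unadjusted p under 0.05. This was OSTC, a subunit of the channel-bound enzyme, at 2.94, 2.87 and 2.70 with EEF1D-1357 and 3.07, 3.02 and 3.22 with EEF1D-1893, against 2.10 and 2.41 in the controls. Its groups did not overlap, at a log2 fold change of 0.71 (SE 0.14), or 1.64-fold (adjusted p = 0.144, or 0.0358 under the slide block). TUSC3, another subunit, stood at 0.60 but at 0.07 without control replicate 1. The list of other ER insertion routes had 11 of 20 above 0 and a median of 0.10, which was -0.16 without control replicate 2. Its members with the smallest p were CAMLG, the receptor for tail-anchored proteins, at 0.56 (SE 0.17), and EMC2 of the ER membrane protein complex at 0.45 (SE 0.19), or 0.14 without control replicate 1.

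Genes that regulate COPII and ER exit included 15 of 23 above 0, with a median of 0.19 (0.12 without control replicate 1), and in 7 the shRNA arrays all lay above both controls, against 7.76% of all genes. YKT6, a SNARE of ER to Golgi fusion, stood at -0.62, -0.78 and -0.65 with EEF1D-1357 and at -1.02, -0.64 and -0.73 with EEF1D-1893, against -1.93 and -1.31 in the controls. That is a log2 fold change of 0.88 (SE 0.19), or 1.84-fold (limma adjusted p = 0.153). CNIH1, a cargo receptor of the cornichon family, stood at 0.74, 0.72 and 0.82 with EEF1D-1357 and at 0.66, 0.77 and 0.87 with EEF1D-1893, against -0.26 and 0.32 in the controls. Without control replicate 1 the values were 0.57 for YKT6 and 0.45 for CNIH1. Both genes were higher on both slides, and both were called under the slide block (adjusted p = 0.0358 and 0.0349). The COPI regulators and retrieval list had 10 of 26 above 0 and a median of -0.06, which was 0.11 without control replicate 1 and -0.33 without control replicate 2. GBF1, the exchange factor that loads ARF1 with GTP at the Golgi, stood at -3.45, -3.64 and -3.17 with EEF1D-1357 and at -2.88, -3.17 and -3.14 with EEF1D-1893, against -2.50 and -2.25 in the controls. That is 54.8% of control, lower on both slides at -1.17 and -0.57, with an adjusted p of 0.144, or 0.0435 under the slide block. STX18, an ER SNARE for returning COPI vesicles, stood at -0.43 (SE 0.12) and the mean of its probes at -0.11.

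Of the transcription factor genes that control secretory capacity, 7 of 11 measured were above 0, with a median of 0.05, or -0.09 without control replicate 2. XBP1, which drives expression of many ER and transport genes in secretory cells, stood at 4.22, 3.93 and 4.14 with EEF1D-1357 and at 4.15, 4.28 and 4.35 with EEF1D-1893, against 3.63 and 3.5 in the controls. The groups did not overlap, and the log2 fold change of 0.62 (SE 0.13; limma adjusted p = 0.153) was 0.60 on slide 1 and 0.64 on slide 2. ATF4, a factor of the integrated stress response, stood at 5.38, 5.42 and 5.59 with EEF1D-1357 and at 5.55, 5.48 and 5.63 with EEF1D-1893, against 6.30 and 5.70 in the controls. The log2 fold change was -0.49 (SE 0.18), or -0.19 without control replicate 1.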

How the data were processed

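Per the file headers, each array is a 1-colour bovine Agilent array with probe positions in Btau_3.1, and the deposited scanner values are Cy3 intensity values from Feature Extraction 10.7.3.1, background-subtracted and detrended; the submitters' processing notes name version 9.1. The flags for signal well above background and for outlier spots, which are 0 or 1 scores, are also the deposited files' own. The deposited series table holds log2 values, quantile normalized, and served as an alternative. Of 43653 probes, 238 with an outlier spot were left out. From the log2 intensity the 75th percentile of its array was subtracted. A probe stayed in if 2 or more arrays had it well above background (25538 such probes had a gene name), and the brightest probe of a gene was taken.

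One mean per group was fitted with limma 3.58.1 in R 4.3.3 (statmod 1.5.0), with 5 residual and 2.12 prior degrees of freedom, two-sided, and p-values adjusted over 12608 genes. The workflow was tested on simulated data. Values in every array are given for members whose 6 shRNA arrays lie on one side of both controls at an unadjusted p under 0.05, for the smallest p of each role, for the 3 smallest p of each other contrast, and for paralogue sets; of each further list the 2 smallest p are named, with XBP1 and EEF1D. A few others were named after their values were seen. The members and lists were chosen with earlier results of these data known. Alternatives were other background correction, scaling, filters, probe choices, priors, weights, blocks and left-out arrays. The comparison of downstream with upstream probes and the group separation without single arrays were added after seeing the data. Promoter and protein sequences and exon annotation were not used here.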

Additional observations from a re-analysis of the deposited data

How the results depend on the processing

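The count of 0 called members for both shRNAs became 4 with slide as a block and 18 without control replicate 2; for EEF1D-1357 it became 17 and for EEF1D-1893 15 without that control, and for EEF1D-1893 also 15 with slide as a block. In every other alternative run it was 0. The cause was not tested, but without control replicate 2 only 1 control is left, which is assumed to vary like the other groups. The members' median log2 fold change for both shRNAs (0.19) was 0.27 with median scaling, 0.24 with the mean of a gene's probes and 0.22 with array weights; leaving out each array in turn gave 0.18 to 0.23. For EEF1D-1357 (0.14) it was 0.26 with median scaling, 0.17 with quantile normalization, the deposited table or array weights and 0.18 with a replicate block, and 0.11 to 0.18 with arrays left out. Median scaling moved the median of all genes there to 0.03, in place of -0.09. For EEF1D-1893 (0.26) it was 0.31 with median scaling, 0.22 with slide as a block or slide 2 alone, and 0.22 to 0.27 with arrays left out. For EEF1D-1357 against EEF1D-1893 (-0.08) it was -0.0021 with median scaling, -0.0041 with slide as a block and -0.11 with array weights, and -0.11 to -0.072 with arrays left out. The members with all shRNA arrays above both controls (13) were 23 without control replicate 1, 23 without control replicate 2 and 16 without EEF1D-1357 replicate 3; those below (4) were 5, 16 and 4. Without EEF1D-1357 replicate 3 the shares of all genes were 9.07% and 10.0%. Signs turned for genes near 0 or where 1 control was left out, also for the SRP, TRAP and COPI genes named with such values above. SEC23B (-0.02) was 0.055 with median scaling, 0.030 with the mean of its probes and 0.0051 with a replicate block, KDELR1 (-0.01) was 0.068 with median scaling and 0.024 with a replicate block, and SEC24C was 0.14 with the mean of its probes. With arrays left out, SEC23B ranged over -0.56 to 0.51, KDELR1 over -0.25 to 0.23, KDELR2 over -0.069 to 0.17, SEC62 over -0.031 to 0.21, SAR1A over -0.083 to 0.59, SEC24A over -0.067 to 1.33 and SEC24B over -0.15 to 0.51. The replicate block called 0 members in any contrast; the numbers were not taken to pair the samples, since the deviations of same-numbered arrays correlated at -0.11 to 0.14. Comparing only the groups compared could not be applied to both shRNAs together, and each slide alone holds only 1 of the contrasts with control. Dim signal set no limit for the brightest probes of the members, whereas some of their other probes were dim.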

Other observations

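Tethering genes of the same route were measured without any passing the test (limma). In the TRAPP complexes, which tether ER-derived vesicles, 9 of 12 measured genes had a log2 fold change above 0 for both shRNAs against control, with a median of 0.15. TRAPPC2 stood at -0.77, -0.62 and -0.65 with EEF1D-1357 and at -0.73, -0.62 and -0.55 with EEF1D-1893, against -1.52 and -0.83 in the controls, at 0.52 (SE 0.19), or 0.17 without control replicate 1. TRAPPC9 stood at 3.42, 3.61 and 3.45 with EEF1D-1357 and at 3.09, 3.17 and 3.12 with EEF1D-1893, against 4.15 and 3.53 in the controls. Its log2 fold change of -0.53 (SE 0.18) was -0.04 on slide 1 and -1.02 on slide 2, and -0.22 without control replicate 1.

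Of 17 Golgi matrix and tether genes 10 were above 0, with a median of 0.06, or -0.15 without control replicate 2. COG1, a subunit of the conserved oligomeric Golgi complex, stood at -0.62, -0.67 and -0.96 with EEF1D-1357 and at -0.64, -0.84 and -0.78 with EEF1D-1893, against 0.52 and -0.22 in the controls. This was a log2 fold change of -0.90 (SE 0.21), which is 53.4% of control (limma adjusted p = 0.154), and -0.54 without control replicate 1. GORASP2, a Golgi stacking protein, stood at 0.54 (SE 0.20) and the mean of its probes at 0.20, with 0.24 for the brightest probe without control replicate 1. Of 7 listed milk protein genes 4 were measured, 1 of them above 0 for both shRNAs together, at 0.14. That value averaged 1.37 with EEF1D-1357 and -1.09 with EEF1D-1893, and all 4 genes were below 0 with EEF1D-1893. CSN2, which encodes beta-casein, stood at 0.95, 0.87 and 0.86 with EEF1D-1357 and at 0.78, 0.92 and 0.78 with EEF1D-1893, against 1.55 and 0.87 in the controls. Its log2 fold change was -0.35 (SE 0.19), and -0.01 without control replicate 1. PAEP, which encodes beta-lactoglobulin, stood at -0.21 (SE 0.17), or 0.06 without that control.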
